A study of Mus musculus with 24 samples.

Results

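Camk2n1 and Camk2n2 encode small proteins that inhibit Ca2+/calmodulin-dependent protein kinase II (CaMKII), and Camk2a, Camk2b, Camk2d and Camk2g encode the 4 kinase genes of that family. These 6 genes were read by symbol from a count table of 49280 features in mouse lung organoids. They were chosen from earlier results of these data: Camk2n1 for its lower level after cigarette smoke extract in the epithelial fraction, and the others because they are its partner inhibitor and its kinase targets. The smoke extract comparison is therefore given as values with no test, and tests are kept to the comparisons between fractions and of the drugs, which that choice did not use.

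CaMKII is a large ring of kinase subunits that calcium-bound calmodulin switches on. A subunit that its neighbour has phosphorylated stays active after calcium has fallen, so the enzyme holds a trace of past calcium signals. The products of Camk2a and Camk2b are best known from neurons, while those of Camk2d and Camk2g occur in most tissues, and in the airway CaMKII is studied in smooth muscle and epithelium. The products of Camk2n1 and Camk2n2, also called CaMKIIN alpha and beta, bind the active catalytic domain and block it.

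Organoids were grown from lung epithelial cells of wild-type mice mixed with CCL206 cells, which are a single mouse lung fibroblast line. Until day 14 the cultures received 5% cigarette smoke extract (CSE) or its vehicle. They were then dissociated, the epithelial cells were replated with newly added CCL206 cells, and the new cultures received vehicle or 100 nM tanimilast, a phosphodiesterase 4 inhibitor, together with 100 nM formoterol, a beta-2 adrenoceptor agonist, until harvest on day 28. Epcam-positive (Epi) and Epcam-negative (Fib) cells gave separate libraries. EpiVeh and FibVeh had vehicle in both windows, EpiCSE and FibCSE had CSE and then vehicle, EpiTF and FibTF had vehicle and then both drugs, and EpiCSETF and FibCSETF had CSE and then both drugs. Each of the 8 groups held 3 libraries, from mouse 1, 2 and 3 in that order wherever 3 values are given. The harvested fibroblasts had therefore not met the extract themselves, per the labels' protocols, and all cells were collected after the extract had been withdrawn.

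Totals ran from 31832267 to 47534709 counts a library, so that 1 CPM (the count scaled by library size) stood for at least 33.2 counts. All 6 genes passed the filter on low counts in every comparison. Epcam averaged 1260 CPM in the 12 Epi libraries and 440 CPM in the 12 Fib libraries, so the Fib fraction held much epithelial RNA. The mean log2 CPM of 8 epithelial markers minus that of 8 fibroblast markers was 4.42 to 7.38 in Epi and 0.90 to 3.33 in Fib. The FibCSE library of mouse 1 stood apart, with the lowest marker difference of all libraries and 2145 CPM of the collagen gene Col1a1, against 232 to 990 CPM in the other Fib libraries. In such bulk libraries, fewer cells of a type and less RNA per cell cannot be told apart.

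The coding sequences of the inhibitor genes are shown because these are short, closely related proteins whose transcripts went in opposite directions between the fractions. They are those of the GENCODE M21 annotation on GRCm38, read 5′ to 3′ along the coding strand without the stop codon. Capitals mark the 3 stretches of at least 11 identical bases that both share.

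Camk2n1: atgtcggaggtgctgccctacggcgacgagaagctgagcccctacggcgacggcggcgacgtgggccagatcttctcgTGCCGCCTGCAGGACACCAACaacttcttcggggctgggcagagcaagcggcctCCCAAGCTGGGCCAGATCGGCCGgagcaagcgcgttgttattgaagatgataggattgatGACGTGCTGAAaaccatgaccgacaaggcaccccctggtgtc

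Camk2n2: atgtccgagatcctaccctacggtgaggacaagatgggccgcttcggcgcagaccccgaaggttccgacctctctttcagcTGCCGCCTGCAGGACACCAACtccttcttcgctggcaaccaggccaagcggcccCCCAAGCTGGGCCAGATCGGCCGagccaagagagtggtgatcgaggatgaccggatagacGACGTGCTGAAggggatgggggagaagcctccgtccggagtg

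Camk2n1 has 78 codons in 2 coding exons, chr4:138455186-138455351 and chr4:138456718-138456785 on the plus strand. Camk2n2 has 79 codons, also in 2 coding exons, chr16:20620176-20620243 and chr16:20621026-20621194 on the minus strand. Of 234 aligned bases, 167 were identical (71.4%), and the longest shared stretch was 23 bases. In the same annotation Camk2n2 overlaps Gm49333 on the opposite strand, and Camk2d overlaps several predicted genes and the antisense gene Gm15551. The sources used here do not state whether counting used strand, so reads from these partners cannot be told apart from those of Camk2n2 and Camk2d.

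Levels per transcript length put Camk2n1 above its kinase targets in EpiVeh. In CPM per kilobase of all annotated exons, the EpiVeh means were 26.1 ± 0.982 (SD, n = 3) for Camk2n1, 7.62 ± 0.316 for Camk2g and 4.31 ± 0.387 for Camk2d. The same means were 0.936 for Camk2n2, 0.575 for Camk2b and 0.0825 for Camk2a. The partner inhibitor and the kinase genes best known from neurons were thus far below the other 3 genes. In FibVeh the gap between Camk2n1 and Camk2g was small, with 12.3 ± 1.37 and 10.4 ± 0.825 CPM per kilobase. In FibCSE the order was the opposite, with 9.07 ± 1.67 for Camk2n1 and 11.7 ± 0.458 for Camk2g.

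The exon length used decides part of this order, because Camk2d has 28 annotated transcripts and its exons together span 22.493 kb, against 5.524 kb for its longest transcript. Divided by the longest transcript, Camk2d stood at 18.3, 15.7 and 18.6 CPM per kilobase in EpiVeh, where Camk2n1 stood at 25.0, 26.7 and 26.6. In FibVeh the same measure gave Camk2d 13.9, 13.9 and 14.2, Camk2g 16.9, 19.6 and 17.6, and Camk2n1 11.2, 11.9 and 13.9. The place of Camk2n1 above both kinases thus held with either length in EpiVeh and only with the exon total in FibVeh. In EpiCSE the longest transcript put Camk2d, at 17.9, 16.2 and 17.1, above Camk2n1, at 16.9, 13.5 and 15.1.

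**Figure D1:**
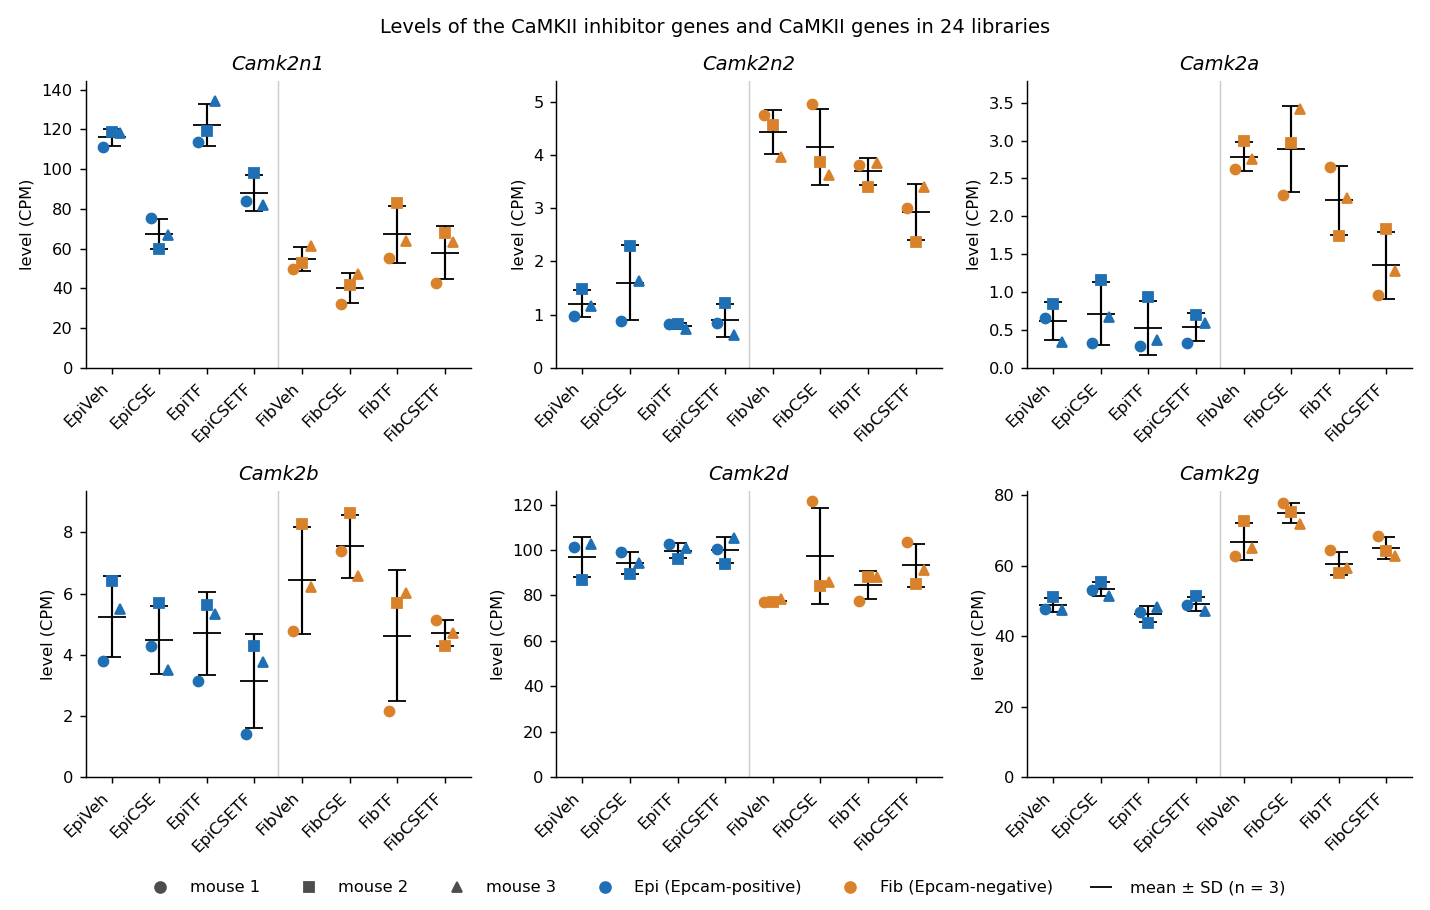
Levels in CPM (y axis, linear, from 0) of the 6 genes in the 8 groups (x axis), with a symbol for each mouse, a short line for the mean and bars for the SD of 3 libraries. Camk2n1 ran from 59.8 to 134 CPM in Epi and was lower after CSE, while Camk2n2 and Camk2g were lower in every Epi library than in any Fib library.

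In the plot of levels by group, Camk2n1 is the gene of the 6 whose Epi groups with and without CSE stood apart in both drug arms. Camk2n1 stood at 111, 119 and 118 CPM in EpiVeh. After CSE it stood at 75.2, 59.8 and 67.0 CPM. All 3 smoke-exposed libraries were below all 3 vehicle libraries. With both drugs and no CSE, Camk2n1 was at 114, 119 and 134 CPM, which overlapped EpiVeh. With both drugs after CSE it was at 84.2, 98.2 and 81.7 CPM, between the other groups and overlapping neither EpiCSE nor EpiTF.

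Camk2n1 had a lower mean in each Fib group than in the Epi group of the same treatment. In Fib it stood at 49.9, 52.7 and 61.6 CPM in FibVeh and at 32.4, 41.5 and 47.1 CPM in FibCSE. It stood at 55.1, 82.8 and 63.6 CPM in FibTF and at 42.8, 67.9 and 63.5 CPM in FibCSETF. FibCSE lay below FibVeh without overlap, while each drug group overlapped its counterpart without drugs. Ordered by mean CPM, Camk2n1 ran from EpiTF (122) through EpiVeh (116), EpiCSETF (88.0), EpiCSE (67.3), FibTF (67.2), FibCSETF (58.0) and FibVeh (54.7) to FibCSE (40.3). EpiTF and EpiVeh overlapped, as did the 4 groups from EpiCSE to FibVeh, each with the next.

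The contrast that chose Camk2n1 gave a log2 fold change after CSE of -0.79 ± 0.10 (SE) without drugs and -0.47 ± 0.10 with drugs in Epi, or -0.63 ± 0.07 averaged over both. This places the level after CSE at 0.58 and 0.72 of its counterpart. It was lower in each of the 6 mouse pairs. Among 18038 genes, 2.99% were lower without overlap in EpiCSE than in EpiVeh, 5.67% in EpiCSETF than in EpiTF and 0.266% over 6 libraries against 6, and Camk2n1 met all 3 criteria. Nothing is read from these shares, since this contrast is how the gene was picked out. In Fib the same values were -0.42 ± 0.20, -0.20 ± 0.20 and -0.31 ± 0.14, with a background of 10.7% of 18287 genes lower in FibCSE without overlap.

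Markers differed between these groups in some mice only. The marker difference was 6.384, 5.372 and 6.917 in EpiVeh and 6.455, 4.424 and 5.511 in EpiCSE. It was 1.59, 1.54 and 2.09 in FibVeh and 0.90, 1.58 and 2.09 in FibCSE. The EpiCSE libraries had 8 fibroblast markers summing to 278 to 816 CPM, against 182 to 442 CPM in EpiVeh, with none of the 8 at 0. These ranges overlapped. With the marker difference of each library as a covariate, the averaged value for Camk2n1 after CSE was -0.59 ± 0.07 in Epi and -0.34 ± 0.05 in Fib, close to the values without it. Without the FibCSE library that stood apart, the Fib value was -0.25 ± 0.14.

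Camk2n2, the partner inhibitor, had overlapping groups with and without CSE in both fractions. In Epi libraries it stood at 0.982, 1.49 and 1.15 CPM in EpiVeh and at 0.876, 2.28 and 1.64 CPM in EpiCSE. The averaged log2 difference after CSE was 0.29 ± 0.26 (SE) and -0.03 ± 0.21 with the marker covariate. In Fib it stood at 4.76, 4.55 and 3.97 CPM in FibVeh and at 4.95, 3.86 and 3.62 CPM in FibCSE, with an averaged difference of -0.19 ± 0.13. These are low levels, resting on 25 to 87 counts a library in Epi and 79 to 234 in Fib.

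Averaged over both drug arms and without the marker covariate, the kinase genes showed smaller differences after CSE than Camk2n1 did in Epi. Camk2d, a broadly expressed kinase gene, stood at 101, 86.9 and 103 CPM in EpiVeh and at 99.0, 89.3 and 94.4 CPM in EpiCSE. Its averaged difference in Epi was -0.02 ± 0.05. Camk2g, which is also broadly expressed, stood at 47.7, 51.1 and 47.5 CPM in EpiVeh and at 53.2, 55.3 and 51.3 CPM in EpiCSE. Each EpiCSE library was above each EpiVeh library, as for 3.04% of genes, and the averaged difference was 0.11 ± 0.04. In Epi, then, the inhibitor was lower after CSE while Camk2d did not differ beyond its error and Camk2g was slightly higher.

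In Fib after CSE, Camk2d went from 77.0, 76.9 and 78.5 CPM in FibVeh to 122, 84.2 and 86.1 CPM in FibCSE. The FibCSE libraries were all above the FibVeh libraries, as for 7.09% of genes, and the library with 122 CPM is the one that stood apart. The averaged difference was 0.25 ± 0.10, and 0.15 ± 0.06 without that library. Camk2g stood at 62.7, 72.8 and 65.0 CPM in FibVeh and at 77.8, 75.1 and 71.9 CPM in FibCSE, with overlap. Its averaged difference was 0.15 ± 0.05, with a higher level in 6 of 6 mouse pairs, beside 16.1% of genes with the same direction in all pairs.

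Camk2a and Camk2b had wide errors after CSE. Camk2a rested on 13 to 44 counts a library in Epi, and its averaged differences were 0.14 ± 0.40 in Epi, -0.37 ± 0.31 there with the marker covariate, and -0.31 ± 0.18 in Fib. Camk2b rested on 63 to 259 counts a library in Epi, with averaged differences of -0.40 ± 0.27 in Epi and 0.15 ± 0.23 in Fib. Its Epi value was -0.57 ± 0.29 with the marker covariate, near the -0.59 ± 0.07 of Camk2n1, and -0.41 ± 0.18 with mouse as a block. By arm, Camk2b in Epi had -0.22 ± 0.39 without drugs and -0.58 ± 0.39 with drugs, beside -0.79 ± 0.10 and -0.47 ± 0.10 for Camk2n1. Without mouse 1 the Fib values were -0.08 ± 0.19 for Camk2a and -0.13 ± 0.14 for Camk2b, and without mouse 2 they were -0.52 ± 0.21 and 0.31 ± 0.30. Both genes had overlapping groups in each of these comparisons.

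**Figure D2:**
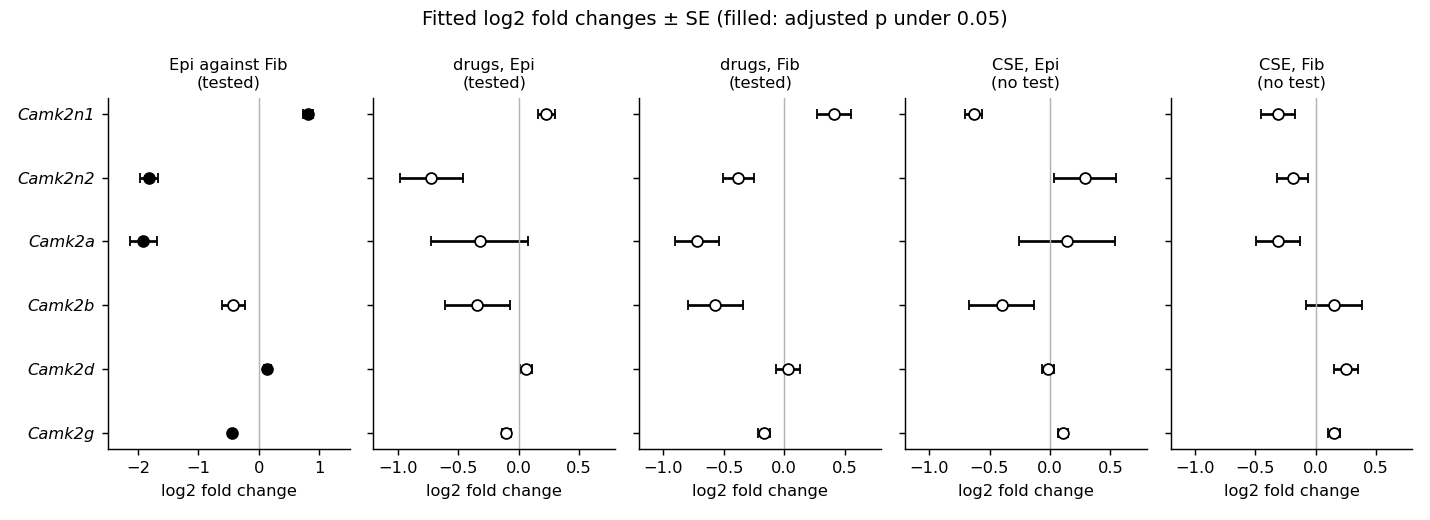
Fitted log2 fold changes (x axis; bars, SE) of the 6 genes in the comparison of fractions, of drugs in each fraction and of CSE in each fraction, from edgeR over 24 libraries or the 12 of a fraction. Filled points had an adjusted p under 0.05 and occur only for 5 genes between fractions; the CSE values carry no test, and the first panel has a wider axis.

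Between the fractions, which the choice of genes did not use, 5 of the 6 genes differed. Camk2n1 and, by a small margin, Camk2d were higher in Epi, and Camk2n2, Camk2a and Camk2g were lower there. In the edgeR quasi-likelihood test over all 24 libraries, 68.9% of 19142 genes passed an adjusted p of 0.05, 34.7% higher and 34.2% lower in Epi, so 5 calls among 6 genes is not far from the share of all genes.

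Camk2n1 averaged 98.4 ± 24.1 CPM (SD, n = 12) in Epi and 55.1 ± 13.7 in Fib, with ranges of 59.8 to 134 and 32.4 to 82.8 CPM that overlapped. The log2 fold change was 0.81 ± 0.08 (SE; adjusted p = 3.84e-08), and Camk2n1 was higher in Epi in 12 of 12 pairs of libraries with the same mouse and treatment. Camk2n2 averaged 1.12 ± 0.477 CPM in Epi, with a range of 0.612 to 2.28, and 3.80 ± 0.731 in Fib, with a range of 2.37 to 4.95. The ranges did not overlap, as for 11.3% of genes lower in Epi, and the log2 fold change was -1.81 ± 0.15 (adjusted p = 2.67e-09). The inhibitor genes thus differed between fractions in opposite directions.

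Among the kinase genes, Camk2g averaged 49.4 ± 3.16 CPM in Epi, with a range of 43.8 to 55.3, and 66.8 ± 6.30 in Fib, with a range of 58.1 to 77.8. Its ranges did not overlap either, and its log2 fold change of -0.45 ± 0.03 (adjusted p = 1.02e-09) had the smallest standard error of the 6. Camk2a averaged 0.601 ± 0.279 CPM in Epi and 2.31 ± 0.738 in Fib, a log2 fold change of -1.91 ± 0.22 (adjusted p = 3.30e-07), lower in 12 of 12 pairs. Its ranges met, since the EpiCSE library of mouse 2 held 1.15 CPM and the FibCSETF library of mouse 1 held 0.956 CPM.

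Camk2d averaged 97.7 ± 5.63 CPM in Epi and 88.2 ± 13.0 in Fib, a log2 fold change of 0.14 ± 0.06 (adjusted p = 0.041). This small difference did not hold under DESeq2 (adjusted p = 0.0662), and across single libraries or mice left out its adjusted p ran from 0.000378 to 0.236. Without the FibCSE library that stood apart, which held the highest Camk2d level of all, it was 0.19 ± 0.04 (adjusted p = 0.000378). Camk2b averaged 4.40 ± 1.40 CPM in Epi and 5.83 ± 1.80 in Fib, with overlapping ranges and a log2 fold change of -0.42 ± 0.19 (adjusted p = 0.0571). With mouse as a block, under which 72.2% of genes were called, it was -0.44 ± 0.15 (adjusted p = 0.012).

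Markers of other cell types moved with the fraction. The sum of 8 neuroendocrine and neuronal markers was 58.3 to 156 CPM in Fib and 10.0 to 42.4 CPM in Epi, with Chga at 0 in FibCSE, FibTF, FibCSETF and EpiTF. The sum of 6 smooth muscle and myofibroblast markers was 26.0 to 383 CPM in Fib and 7.23 to 26.3 CPM in Epi. Endothelial markers summed to at most 2.71 CPM and the 6 immune markers to 25.5 to 78.2 CPM over all groups, with Ptprc, which marks leukocytes, at 0 in EpiVeh and EpiCSETF and the endothelial Emcn at 0 in every group but FibVeh. Their part in the fraction differences was not tested.

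The drugs gave no called change in any of the 6 genes, in either fraction, by the edgeR test without a mouse term. Drug effects were averaged over cultures with and without CSE, and a positive value is higher with tanimilast and formoterol. Few genes at all passed: 0.00554% of 18038 in Epi and 0.109% of 18287 in Fib.

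For Camk2n1 the averaged drug effect was 0.23 ± 0.07 in Epi (adjusted p = 0.637) and 0.41 ± 0.14 in Fib (adjusted p = 0.215). It was higher with drugs in 6 of 6 mouse pairs in each fraction, as for 5.34% of genes in Epi and 8.53% in Fib. The smallest Epi pair, mouse 2 without CSE, was all but equal, at 118.8 CPM in EpiVeh and 119 CPM in EpiTF. With mouse as a block, under which 2.54% of genes were called in Fib, the Fib value was 0.40 ± 0.09 (adjusted p = 0.0453). By arm, with no test because each arm shares libraries with the CSE contrast, the Epi values were 0.07 ± 0.10 without CSE and 0.38 ± 0.10 after CSE, and the Fib values were 0.30 ± 0.20 and 0.52 ± 0.20. EpiCSETF lay above EpiCSE without overlap, as for 4.32% of genes.

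The marker difference of the Fib libraries was 1.59, 1.54 and 2.09 in FibVeh and 1.70, 2.96 and 2.24 in FibTF, and it was 0.90, 1.58 and 2.09 in FibCSE and 1.60, 2.96 and 3.33 in FibCSETF. It was higher with drugs in each mouse pair, by little in mouse 1 and mouse 3 without CSE, and the groups overlapped. The difference was not tested. The 8 epithelial markers summed to 3080 to 4450 CPM in FibVeh and 2910 to 3920 CPM in FibCSE, against 3730 to 6080 CPM in FibTF and 3810 to 6050 CPM in FibCSETF. With the marker difference as a covariate, the drug effect on Camk2n1 was 0.05 ± 0.06 in Fib (adjusted p = 0.794) and 0.19 ± 0.07 in Epi (adjusted p = 0.363), and with the mouse block as well it was 0.08 ± 0.08 in Fib and 0.11 ± 0.07 in Epi. The part of the epithelial RNA in the drug effect was not tested beyond these fits.

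**Figure D3:**
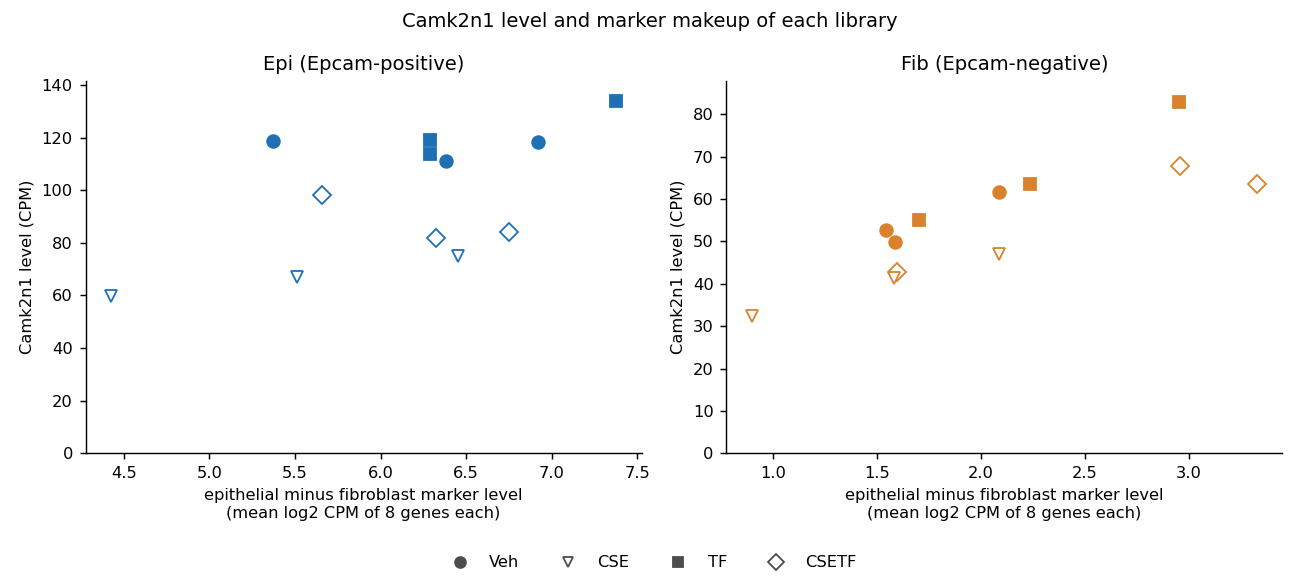
Camk2n1 level in CPM (y axis, linear, from 0) against the mean log2 CPM of 8 epithelial markers minus that of 8 fibroblast markers (x axis) for the 12 Epi and 12 Fib libraries, with a symbol for each treatment and open symbols for CSE. In Fib, Camk2n1 was lowest, at 32.4 CPM, where the marker difference was lowest, at 0.90, and was 63.5 CPM at the largest, 3.33, and highest, 82.8 CPM, at 2.96, while in Epi all 6 CSE libraries, at most 98.2 CPM, lay below the 6 others.

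Camk2n2 had lower values with drugs in both fractions. It stood at 0.831, 0.816 and 0.728 CPM in EpiTF and at 0.851, 1.21 and 0.612 CPM in EpiCSETF, and at 3.82, 3.40 and 3.85 CPM in FibTF and 3.00, 2.37 and 3.40 CPM in FibCSETF. EpiTF lay below EpiVeh (as for 3.60% of genes), FibTF below FibVeh (8.65%) and FibCSETF below FibCSE (5.53%), each without overlap. The averaged effects were -0.72 ± 0.26 in Epi (adjusted p = 0.73) and -0.38 ± 0.13 in Fib (adjusted p = 0.225). The level was lower with drugs in 6 of 6 pairs in each, as for 5.68% and 6.64% of genes, and neither effect passed the test. With the marker covariate the effects were -0.41 ± 0.21 in Epi and -0.26 ± 0.17 in Fib.

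Of the kinase genes in Fib, Camk2a went with the drugs from 2.62, 2.99 and 2.76 CPM in FibVeh to 2.65, 1.74 and 2.25 CPM in FibTF, and from 2.28, 2.97 and 3.41 CPM in FibCSE to 0.956, 1.83 and 1.28 CPM in FibCSETF. The averaged effect was -0.72 ± 0.18 (adjusted p = 0.137), and DESeq2 gave -0.72 with an adjusted p of 0.0121. With the marker covariate the edgeR effect was -0.84 ± 0.24, and with the mouse block as well -0.75 ± 0.34. By arm, without the covariate, the edgeR effect was -0.33 ± 0.26 without CSE and -1.10 ± 0.26 after CSE. In the arm after CSE, FibCSETF lay below FibCSE without overlap, as for 5.53% of genes. Camk2a was thus lowest of the Fib groups where CSE had been followed by drugs, and whether it changed depends on the test used.

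Camk2b had an averaged drug effect of -0.57 ± 0.23 in Fib (adjusted p = 0.278), with FibCSETF at 4.28 to 5.14 CPM below FibCSE at 6.58 to 8.64 CPM (5.53% of genes lower without overlap), and -0.34 ± 0.27 in Epi (adjusted p = 0.873). Its Fib effect was -0.66 ± 0.31 with the marker covariate and -0.21 ± 0.33 with the mouse block as well. Camk2g had -0.17 ± 0.05 in Fib (adjusted p = 0.161; -0.09 ± 0.05 with the marker covariate) and -0.10 ± 0.04 in Epi (adjusted p = 0.784), lower in 5 of 6 pairs in each. FibCSETF lay below FibCSE without overlap, again as for 5.53% of genes, and EpiCSETF below EpiCSE, as for 4.06%. Camk2d had 0.03 ± 0.10 in Fib (adjusted p = 0.909) and 0.06 ± 0.05 in Epi (adjusted p = 0.897). Camk2a in Epi had -0.32 ± 0.40 (adjusted p = 0.935). In Fib, 4 of the 6 genes thus had values below 0 with drugs, and none of these passed in edgeR, while DESeq2 called Camk2a.

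Whether the drug effect differed between fractions was tested directly, and it called 0 of the 6 genes and 0% of 19142 genes, with 499 genes at an unadjusted p under 0.05 in edgeR and 1 called by DESeq2. The difference, Epi minus Fib, was -0.19 ± 0.16 for Camk2n1 and -0.35 ± 0.29 for Camk2n2. It ran from 0.02 ± 0.11 for Camk2d to 0.39 ± 0.44 for Camk2a among the kinase genes. With these errors a difference in drug effect between the fractions could not be resolved.

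The ratio of inhibitor to kinase transcript within a library shows how Camk2n1 moved against its targets. Camk2n1 over Camk2d, in CPM, was 1.21 ± 0.142 (SD, n = 3) in EpiVeh, 0.713 ± 0.0449 in EpiCSE, 1.23 ± 0.112 in EpiTF and 0.887 ± 0.141 in EpiCSETF. Over Camk2g it was 2.38 ± 0.0948, 1.27 ± 0.169, 2.64 ± 0.188 and 1.79 ± 0.111 in the same order. The ratio to either kinase was lower in all 3 EpiCSE libraries than in all 3 EpiVeh libraries, and EpiCSETF lay between them.

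In Fib, Camk2n1 over Camk2d was 0.706 ± 0.0702 in FibVeh, 0.435 ± 0.149 in FibCSE, 0.791 ± 0.130 in FibTF and 0.635 ± 0.199 in FibCSETF. Over Camk2g it was 0.823 ± 0.114, 0.541 ± 0.120, 1.12 ± 0.288 and 0.900 ± 0.239. The FibCSE library that stood apart had the lowest Camk2d ratio, 0.266. These ratios carry no test, since their numerator was chosen for the CSE difference, and they depend on transcript length, so they compare libraries and not the amounts of the transcripts.

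**Figure D4:**
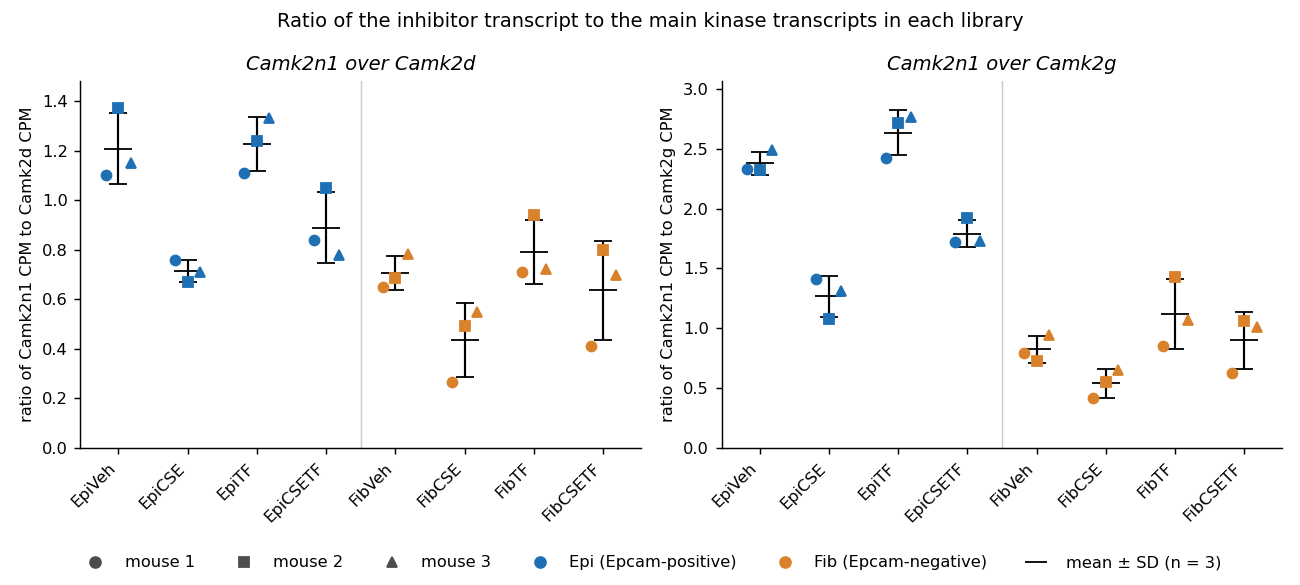
Ratio of Camk2n1 CPM to Camk2d CPM and to Camk2g CPM in each library (y axes, linear, from 0) by group (x axis), with a symbol for each mouse, a short line for the mean and bars for the SD of 3 libraries. Both ratios were lower in EpiCSE, at 0.713 and 1.27, than in EpiVeh, at 1.21 and 2.38.

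Within the kinase family, Camk2g and Camk2d made up nearly all transcripts per length in each library. With the length of all exons, Camk2g held 57.7% to 71.4% of CaMKII CPM per kilobase, Camk2d 21.3% to 37.3%, Camk2b 1.26% to 5.63% and Camk2a 0.31% to 2.81%. The mean share of Camk2d was 34.3% ± 3.24 (SD, n = 3) in EpiVeh and 23.1% ± 1.62 in FibVeh, and that of Camk2g was 60.5% ± 2.24 and 69.7% ± 0.795. Camk2d thus had a larger share in the epithelial cells and Camk2g in the Epcam-negative ones. With the longest transcript as length, the mean shares of Camk2d and Camk2g were 54.6% and 41.1% in EpiVeh and 41.1% and 52.7% in FibVeh, so which of them led in Epi depends on the length, while Camk2g led in FibVeh with both.

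**Figure D5:**
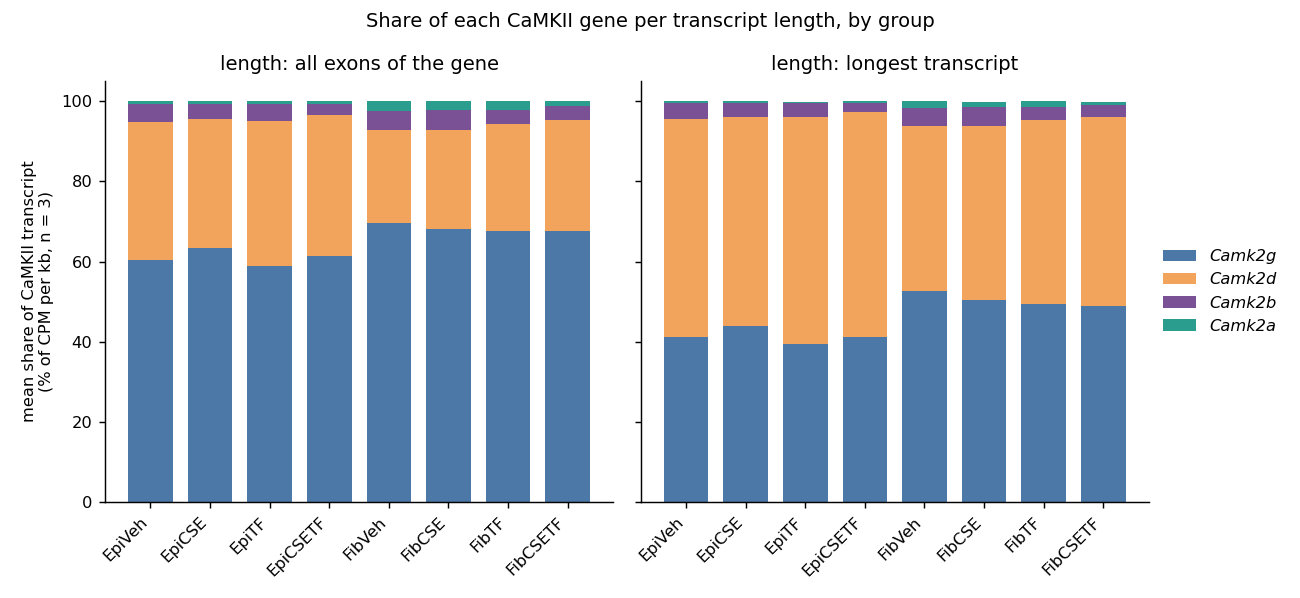
Mean share of each CaMKII gene in the CPM per kilobase of all 4 (y axis, percent, stacked bars from 0, n = 3) by group (x axis), with the length of all exons on the left and of the longest transcript on the right. Camk2d and Camk2g made up nearly all of each bar; in EpiVeh Camk2g held 60.5% on the left and 41.1% on the right.

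Genes around CaMKII signalling were followed in 6 lists of 63 genes, of which 58 passed the filter on low counts in the comparison of fractions. Of these, 20 were higher and 25 lower in Epi, beside 34.7% and 34.2% of all genes. The drugs called 0 of 57 list genes in each fraction. With mouse as a block, under which 2.54% of all genes were called, 2 were higher with drugs in Fib: Rcan3, a calcineurin regulator, at 0.24 ± 0.07 (adjusted p = 0.0457 with the block), and Trpv4, a calcium-permeable channel, at 0.55 ± 0.14 (adjusted p = 0.0321 with the block). Both were also higher in Epi than in Fib, Rcan3 by 0.55 ± 0.07 and Trpv4 by 1.29 ± 0.09, and the part of the epithelial RNA in these Fib values was not tested.

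Other calmodulin-dependent kinases were split, with 6 of 12 higher and 4 lower in Epi, and a median log2 difference of 0.21 beside 0.03 over all genes. Dapk1, death-associated protein kinase, was higher in Epi at 98.2 ± 9.34 CPM (SD, n = 12) against 49.5 ± 14.5, a log2 difference of 1.00 ± 0.10 (adjusted p = 6.36e-08). Camk1g was also higher, by 1.47 ± 0.27, at levels under 1 CPM. Mylk, myosin light chain kinase of smooth muscle, was lower in Epi at 2.32 ± 1.86 CPM against 10.8 ± 5.35 (adjusted p = 1.09e-07), and Camk1 was lower at 34.0 ± 7.39 against 62.8 ± 7.39 (adjusted p = 3.54e-07). Camkk1 and Camkk2, the kinases that activate Camk1 and Camk4, were lower in Epi as well, by values of -0.72 ± 0.09 and -0.41 ± 0.09, and were picked out after their values were seen.

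Of the calmodulin genes and calmodulin-binding buffers, 5 of 9 were tested and 3 were lower in Epi, with a median of -0.29. Calm3, a calmodulin gene, was lower in Epi at 219 ± 12.1 against 265 ± 22.6 (adjusted p = 4.19e-07). Calml4, a calmodulin-like gene, was lower by a log2 value of -2.03 ± 0.20. Both genes named here were thus lower in the epithelial cells.

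Of 7 phosphatases that act on CaMKII, 3 were higher and 3 lower in Epi, with a median of -0.03. Ppm1f, a CaMKII phosphatase, was lower at 16.1 ± 2.37 CPM against 26.3 ± 2.96 (adjusted p = 5.26e-08), and its relative Ppm1e was lower at under 1 CPM in both (adjusted p = 0.00416). Ppp2cb and Ppp1cb, catalytic subunits of protein phosphatases 2A and 1, were higher, by log2 values of 0.69 ± 0.07 and 0.35 ± 0.05.

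In the calcineurin and NFAT list, 4 of 11 were higher and 4 lower in Epi, with a median of 0.07. Ppp3ca, the calcineurin catalytic subunit, was higher at 210 ± 19.5 CPM against 119 ± 15.8 (adjusted p = 1.17e-09). The transcription factor Nfatc2 was higher in Epi by 1.13 ± 0.10, while Nfatc1 and Nfatc4 were lower, by log2 values of -0.99 ± 0.08 and -2.06 ± 0.18. Of 8 transcription regulators that CaMKII signals to, 2 were higher and 5 lower, with a median of -0.16. Srf and Creb1 were higher by 0.31 ± 0.04 and 0.22 ± 0.04, and the histone deacetylase Hdac5 and the factor Mef2c were lower, with values of -0.68 ± 0.07 and -1.82 ± 0.26.

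Among 15 tested genes of calcium entry and store, 4 were higher and 6 lower in Epi, with a median of -0.05. Trpv4 was higher at 119 ± 16.8 CPM against 48.9 ± 13.2 (adjusted p = 7.76e-10), and Stim1, the calcium sensor of the endoplasmic reticulum, was higher by 0.43 ± 0.04. Orai2, a channel that Stim proteins open, was lower with -0.43 ± 0.08, and Cacna1c, a voltage-gated calcium channel, with -1.68 ± 0.32. Members of this list thus went both ways.

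Genes whose levels ran most like Camk2n1 were ranked by Pearson's r of log2 CPM, as a description over libraries that share mice and treatments. Over the 12 Epi libraries and 10607 genes these were Oasl2 (r = 0.93), Irf7 (0.92), Ctnnb1 (0.91), Xaf1, Lgals3 and Neil1 (each 0.90). Oasl2, Irf7 and Xaf1 are known as interferon-induced genes. After CSE the averaged log2 difference in Epi was -0.63 ± 0.11 for Oasl2, -0.50 ± 0.11 for Irf7 and -0.46 ± 0.07 for Xaf1, beside -0.63 ± 0.07 for Camk2n1. The ranking used the libraries of the CSE contrast that chose Camk2n1, so it favours genes lower after CSE. Nothing is read from that shared direction. For Ctnnb1 it was -0.12 ± 0.05, so a like order of libraries went with unlike sizes.

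Over the 12 Fib libraries and 10722 genes the most alike were Igsf9 (r = 0.95), Tmsb4x, Diap1, P2ry2, Nfe2l3 and Muc16 (each 0.94). Igsf9 and the mucin gene Muc16 were themselves higher in Epi, by 1.48 ± 0.08 and 1.34 ± 0.14. Among the 6 genes, Camk2g ran most against Camk2n1, with r = -0.68 over the Epi and -0.86 over the Fib libraries. Camk2n1 was higher and Camk2g lower in Epi than in Fib. The part of epithelial RNA in these correlations was not tested.

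Over all 24 libraries the genes most like the others of the 6 were Fam115a (r = 0.98), Lgals1, Loxl1 and Gpr124 (each 0.97) for Camk2n2, and Chpf, Csf1, Mboat7 and Crlf2 (each 0.96) for Camk2a. For Camk2g they were Slc30a4 (0.97), Cpe, B3gnt1 (each 0.96) and Naalad2 (0.95), for Camk2d Slc38a2 (0.93), Mtif2, Ank3 (each 0.89) and Zyx (0.88), and for Camk2b Zfand3 (0.70), Sall2, Hhat (each 0.67) and Asna1 (0.66). These libraries differ in fraction, mouse and treatment at once, and Camk2b had the lowest values of the 5 genes.

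Of the genes next to Camk2n1, 1 had counts enough for a value after CSE. Mul1, a mitochondrial ubiquitin ligase gene before it on chromosome 4, had averaged differences of -0.01 ± 0.04 in Epi and 0.06 ± 0.08 in Fib at 28.9 and 20.3 CPM. The pseudogene Rpl38-ps1 before it and Vwa5b1 after it were under 1 CPM and not tested.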

How the data were processed

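Poly-A RNA of Epcam-positive and Epcam-negative cells was sequenced in 24 libraries, 8 groups of 3 mice. The authors deposited raw counts per gene; the tools that the submitters' processing notes name are Trimmomatic 0.30 and DESeq2. The aligner, the counter and the strand setting are not stated in these sources. In addition, per the labels' protocols the reference was named GRCh38.p14 and mouse, so the build is not settled. Coordinates, lengths and sequences are those of GENCODE M21 (GRCm38), matched by Ensembl identifier; Camk2a sequence and some list genes are not reported here. The table had 43339 Ensembl features and 5941 features named NewGene without a symbol, which took 0.574% to 1.06% of counts and stayed in the tests. Mitochondrial genes took 3.94% to 6.77% of counts.

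Counts were tested with edgeR 4.0.16 (R 4.3.3) by the robust quasi-likelihood F test, after TMM scaling and filterByExpr by group, with Benjamini-Hochberg adjustment over all genes and calls at an adjusted p under 0.05. Models held 4 group means for the 12 libraries of a fraction, and fractions were compared over all 24. SE is the fitted log2 fold change over the root of its F statistic. CPM uses TMM-scaled library sizes, and log2 CPM for likeness and markers a prior count of 2. Likeness was ranked among genes with a mean of at least 5 CPM.

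The labels give the mouse as batch, and same-numbered libraries come from the same animal. Deviations from group means correlated with a median of 0.20 within Epi, 0.13 within Fib and 0.13 between fractions for the same mouse, against -0.08, -0.08 and -0.07 for different mice. The main tests held no mouse term, so their p-values measure the spread between libraries within groups, pooled over the groups of a fit. These libraries came from only 3 animals, and in the Fib fraction from cultures of a single fibroblast line. The comparison of fractions did not pair Epi and Fib libraries of the same mouse and treatment. Of 24 replicate pairs, 0 were identical, and chi-square divided by its degrees of freedom ran from 15.5 to 133.

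The 6 genes and the gene lists were chosen with earlier results of these data known. Besides the 6, the text names up to 2 called genes per list and direction with the smallest p, the genes most like each of the 6, and the 2 nearest neighbours of Camk2n1 on each side. Genes named outside this rule are said to be so; Rcan3 was named for its call under the mouse block. The neighbour Gm22961 was not tested. Alternatives were RLE scaling, no filter on low counts, DESeq2 1.42.0, mouse as a block, a marker covariate, a fit over all libraries, NewGene left out, and each library or mouse left out. The scripts were tested on simulated data.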

Additional observations from a re-analysis of the deposited data

How the results depend on the processing

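Only 1 gene was called for the drugs in Epi and 20 in Fib, and these counts moved most. In Epi the count was 2 without a filter on low counts, 69 with DESeq2, 37 with the replicate block, 26 with the marker covariate, 33 with both and 6 in a fit over all 24 libraries, and 0 to 4 with a library or mouse left out. In Fib it was 706 with DESeq2, 464 with the replicate block, 2 with the covariate, 0 with both (where fewer degrees of freedom are left) and 93 in the fit over all libraries, and 0 to 288 with a library or mouse left out. The test of a difference in drug effect called 0 genes, 1 with DESeq2 and 0 to 1 with a library or mouse left out. The cause of these shifts was not tested.

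Of the 6 genes, Camk2n1 (fraction difference 0.70 to 0.88 over the leave-outs), Camk2n2, Camk2a and Camk2g kept their direction and call between fractions under all 32 alternatives. Camk2d lost its call with RLE scaling (0.12, adjusted p = 0.0641), DESeq2 (0.12, adjusted p = 0.0662) and NewGene left out (0.12, adjusted p = 0.0549), and in 21 of 27 leave-outs, with values of 0.08 to 0.19. Camk2b gained a call with DESeq2 (-0.43, adjusted p = 0.034), the replicate block (-0.44, adjusted p = 0.012) and NewGene left out (-0.43, adjusted p = 0.0493), and in 9 of 27 leave-outs, with values of -0.53 to -0.32. For the drugs in Fib, DESeq2 called Camk2a (-0.72, adjusted p = 0.0121) and the replicate block called Camk2n1 (0.40, adjusted p = 0.0453; over all its alternatives 0.0453 to 0.967). The block changed no other call of the 6 genes.

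Among tested values that were not called, directions turned for Camk2a with the covariate in Epi (drug effect 0.23) and for Camk2d over the leave-outs, where its drug effect in Fib ran from -0.02 to 0.13 and the difference between fractions from -0.08 to 0.08. Among the CSE values, which carry no test, they turned with the covariate in Epi for Camk2n2 (-0.03), Camk2a (-0.37) and Camk2d (0.04), without mouse 3 for Camk2a in Epi (-0.11) and without mouse 1 for Camk2b in Fib (-0.13). CSE values of Camk2n1 ran from -0.70 to -0.56 in Epi and from -0.37 to -0.24 in Fib with a mouse or the library that stood apart left out. The shares with the longest transcript as length, and the values without that library, were chosen after seeing the data. Camk2a and Camk2n2 in Epi rest on few counts, which limits the precision of their values.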
